A study of Drosophila melanogaster with 21 samples.

Results

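The genes described here encode structural proteins of the Drosophila melanogaster eggshell: the chorion proteins Cp15, Cp16, Cp18, Cp19, Cp36 and Cp38, and the vitelline membrane proteins Vm26Aa, Vm26Ab, Vm32E and Vm34Ca. Members were taken as the probe sets whose annotated symbol, current or older, was one of these 10 names. This gave 9 genes with 1 probe set each, 6 for the chorion and 3 for the vitelline membrane, of 10844 genes named on the array; Vm26Ab was not analysed here. Tests ran over 13966 probe sets.

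RNA came from dissected lower reproductive tracts of females, which the labels describe as upper uterus, organs of sperm storage and accessory glands. All females were 3 days old and were held at 23 °C, and no genotype or strain is given. Each array carried RNA pooled from 12 to 40 females. The groups were unmated females (5 arrays) and females at 0 h (6 arrays), 3 h (4 arrays), 6 h (3 arrays) and 24 h (3 arrays) after the end of mating, and the labels state that unmated females, the controls, were dissected between the mated ones. Nothing in the labels says whether pools of 1 group were independent cultures, so the p-values measure only the spread between these arrays. In RNA of a whole tissue, fewer cells of a type and less RNA per cell cannot be told apart.

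The eggshell is made in the ovary by follicle cells, the epithelium that surrounds each oocyte. The vitelline membrane, the inner layer, is secreted first. The chorion, the outer layer, is secreted in the last stages, when follicle cells amplify the DNA of their chorion gene clusters. In the RefSeq annotation (Release 6 plus ISO1 MT), Cp18, Cp15, Cp19 and Cp16 are consecutive genes on chromosome arm 3L, and Cp36 and Cp38 are consecutive on the X next to Cp7Fc. The 3 vitelline membrane genes measured lie on 2L. The study compared arrays of each mated time with arrays of unmated females, and the question for these genes is whether eggshell RNA in the tract differed after mating.

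Before the results, 1 array has to be set apart. The 0 h array called replicate 6 held chorion signal that no other array approached, and changes at 0 h are given with and without it. Its overall signal was ordinary: its median intensity was 50.55, where the 21 arrays ranged between 35.6 and 57.7. Its log2 ratio of 3' to 5' control signal was 2.78, inside the 1.89 to 5.58 of the other 5 arrays at 0 h. Intensities are linear array units of a probe set, and levels are compared between arrays, not between named genes. Brightness relative to other probe sets serves only to mark low signal and to choose probe sets. The deposited values carry no detection call. Precision rests on the spread between arrays and on how many arrays each group had.

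**Figure D1:**
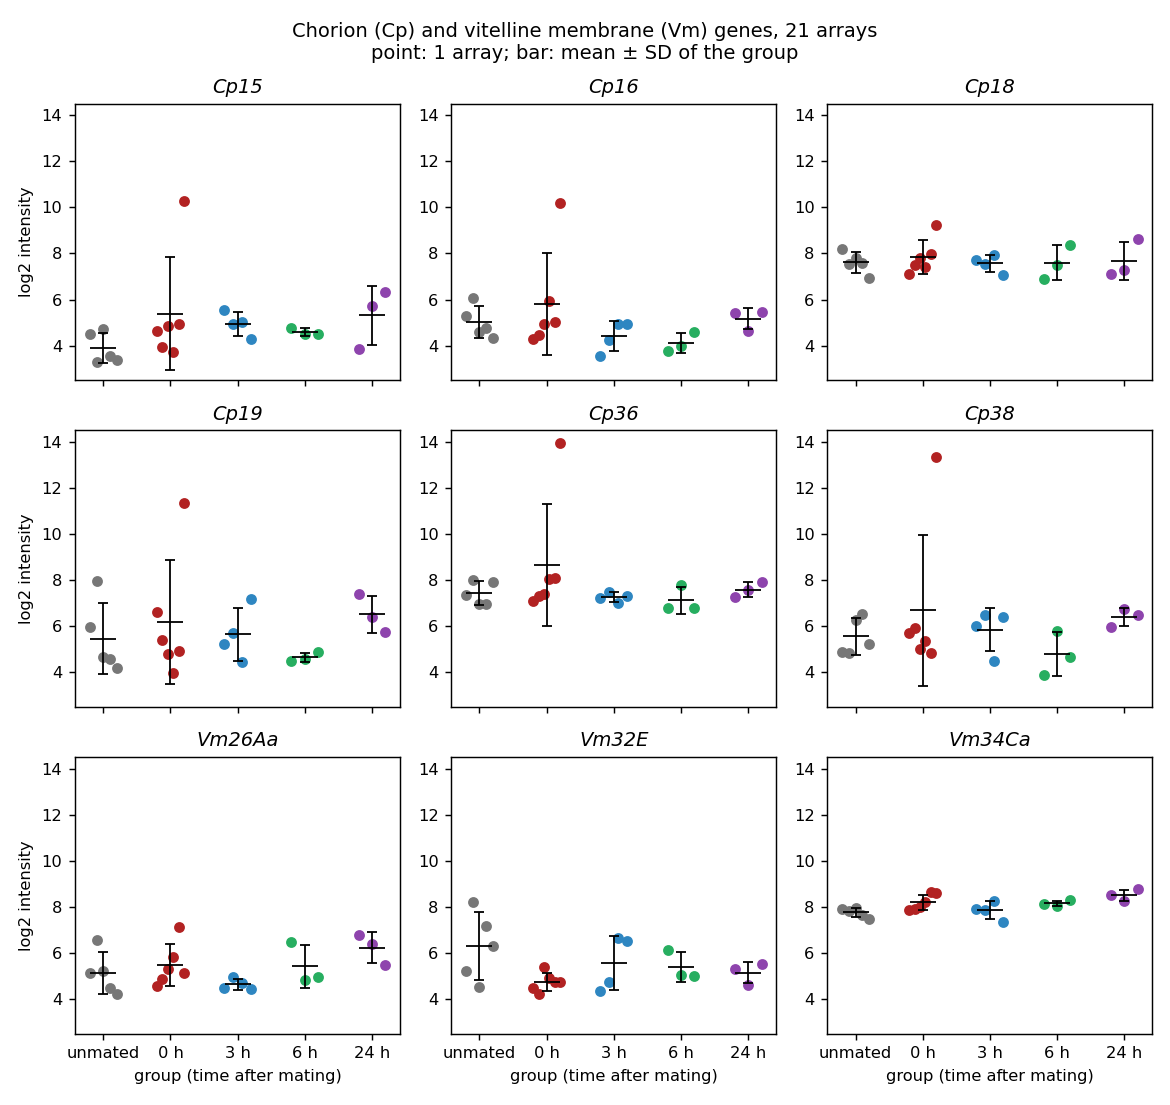
Log2 intensity (y axis, 1 panel per gene) of the 6 chorion and 3 vitelline membrane genes in each of the 21 arrays, grouped along the x axis as unmated, 0 h, 3 h, 6 h and 24 h after mating. Points are arrays and bars are the group mean ± SD. In 6 panels, those of the chorion genes, 1 array at 0 h lies above all other 20 arrays, and in the 3 vitelline membrane panels it does not.

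The X-linked chorion genes showed the widest gap. Cp36, a major chorion protein, had intensities of 137.3, 159.7, 171.5, 266.3, 269.9 and 16070.3 in the 6 arrays at 0 h, against 164.8, 259.9, 123.6, 125.2 and 241.1 in the 5 unmated arrays. Replicates 4 and 5 at 0 h were just above the highest unmated array, and replicate 6 was far above it, at 83.1 times the geometric mean of the other 5 arrays at 0 h and 59.5 times the highest of all other 20 arrays. At the later times Cp36 lay between 127.4 and 180.2 at 3 h, between 110.4 and 223.4 at 6 h and between 153.4 and 240.4 at 24 h, so all later groups overlapped the unmated arrays. Cp38, encoded beside Cp36, had 51.9, 61.4, 32.3, 41.4, 29.0 and 10332.1 at 0 h, against 29.9, 28.7, 77.7, 94.0 and 37.4 in unmated females. Replicate 6 stood at 249 times the geometric mean of the other 5 arrays at 0 h and at 95.3 times the highest of the other 20 arrays, which was 108.4 at 24 h. The other 5 values at 0 h all lay within the unmated range. They were low as well, with no detection call, so the size of these Cp38 ratios is uncertain. Among 13966 probe sets, Cp38 and Cp36 ranked 1 and 2 by the ratio of this array to the highest of the others.

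The genes of the 3L cluster were high in the same array. Cp19 had 97.5, 42.0, 28.0, 15.5, 30.4 and 2644.8 at 0 h, against 61.8, 247.5, 25.4, 24.2 and 18.2 in unmated females. Cp15 had 24.7, 15.4, 29.0, 13.2, 30.2 and 1243.5 at 0 h, against 22.5, 9.9, 26.4, 11.8 and 10.4 in unmated females. Cp16 had 19.4, 22.0, 30.7, 62.0, 32.1 and 1155.8 at 0 h, against 38.9, 67.7, 24.0, 27.4 and 19.9 in unmated females. Replicate 6 was again the sole high array at 0 h, at 75.1 times the other 5 for Cp19, 58.3 times for Cp15 and 38.0 times for Cp16, and these 3 genes ranked 6, 5 and 4 among all probe sets by the ratio to the highest of the other 20 arrays. These ratios rest on low signal in the other arrays, with no detection call, so their size is uncertain. Cp18 had 138.6, 180.2, 219.9, 171.0, 253.2 and 606.5 at 0 h, against 292.2, 186.7, 221.8, 193.6 and 123.2 in unmated females. The high value was 3.22 times the other 5 arrays at 0 h and 1.54 times the highest of the other 20 arrays (392.8 at 24 h), and it ranked 69 among all probe sets. For Cp18 the same array was thus the highest of 21, with a smaller gap.

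The vitelline membrane genes were not high in that array. Vm26Aa, a protein of the inner layer, had 34.9 in replicate 6 at 0 h, against 23.9 to 140.4 in the other 5 arrays at 0 h, and the array ranked 10 of 21 for this gene. Vm32E, which is known from both eggshell layers, had 26.6 there, against 19.0 to 42.1 in the others, and the array ranked 15. Vm34Ca had 387.4 there, against 232.5 to 398.1 in the others, and the array ranked 3. In every case replicate 6 lay within the range of the other 5 arrays at 0 h.

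Arrays with nearby array numbers did not share the chorion signal. The array numbers that the labels give form 6 blocks with wide gaps between them; this grouping was read from the numbers and is stated by no label. Block 5 held replicate 6 and 3 other arrays at 0 h. Within that block, replicate 6 was 305 times the geometric mean of the other 3 arrays for Cp38, 112 times for Cp19, 69.6 times for Cp36, 55.0 times for Cp15, 29.3 times for Cp16 and 2.86 times for Cp18. The vitelline membrane genes stood there at 0.512 times for Vm26Aa, 0.823 times for Vm32E and 1.25 times for Vm34Ca. The chorion gap was therefore also present within the block. For Cp38, Cp19, Cp15 and Cp16 its size is uncertain, because signal in the other arrays was low.

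Genes on either side of the clusters did not stand out in that array. Of the 8 genes on each side of each cluster, 24 of 32 were on the array, with 25 probe sets. Only 1 of these, for IntS4, a subunit of the Integrator complex, had its highest value in replicate 6 at 0 h, 239.1 against 234.8 for the highest of the other arrays. The median of the 25 ratios was 0.32. The first measured neighbours were within the range of the other 20 arrays: Prm, the muscle protein paramyosin beside Cp16, had 1368.4 there and 591.0 to 2847.1 elsewhere, and CG12116, the nearest measured neighbour before the X cluster, had 7567.1 there and 1772.7 to 12628.4 elsewhere.

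Other eggshell genes were also high in replicate 6 at 0 h. Of 14 genes measured from a list of further eggshell and vitelline membrane components, 7 had their highest value of all 21 arrays there and all 7 were at least 2-fold above the other 20, as were 5 of the 9 genes described above. Over all probe sets, 3.61% had their highest value in this array and 0.243% were at least 2-fold above the others. The 7 genes below were named after their values were seen. CG13114 had 934.8 in replicate 6, against at most 52.0 in the other 20 arrays. The yellow-family gene yellow-g, needed for a rigid eggshell, had 800.4 there, against at most 130.8 elsewhere, and its neighbour yellow-g2 was at 2.91 times its highest value elsewhere, which was 74.9. CG13084 had 689.7 there, against at most 175.5. The same was seen for Cp7Fc, a chorion gene of the X cluster (207.8, against at most 51.1), for CG13083 (167.6, against at most 59.4) and for Femcoat (68.4, against at most 9.1). The other 7 genes of the list, which were psd, Fcp3C, ndl, clos, Pxt, fs(1)N and dec, were not highest there; psd, a vitelline membrane protein, had 16.2 in replicate 6, against 8.9 to 25.6 in the other arrays at 0 h, and dec, a large chorion component also named dec-1, had 16.0, against 4.5 to 16.4. High signal in this array thus covered all 6 chorion genes first described and none of the 3 vitelline membrane genes.

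**Figure D2:**
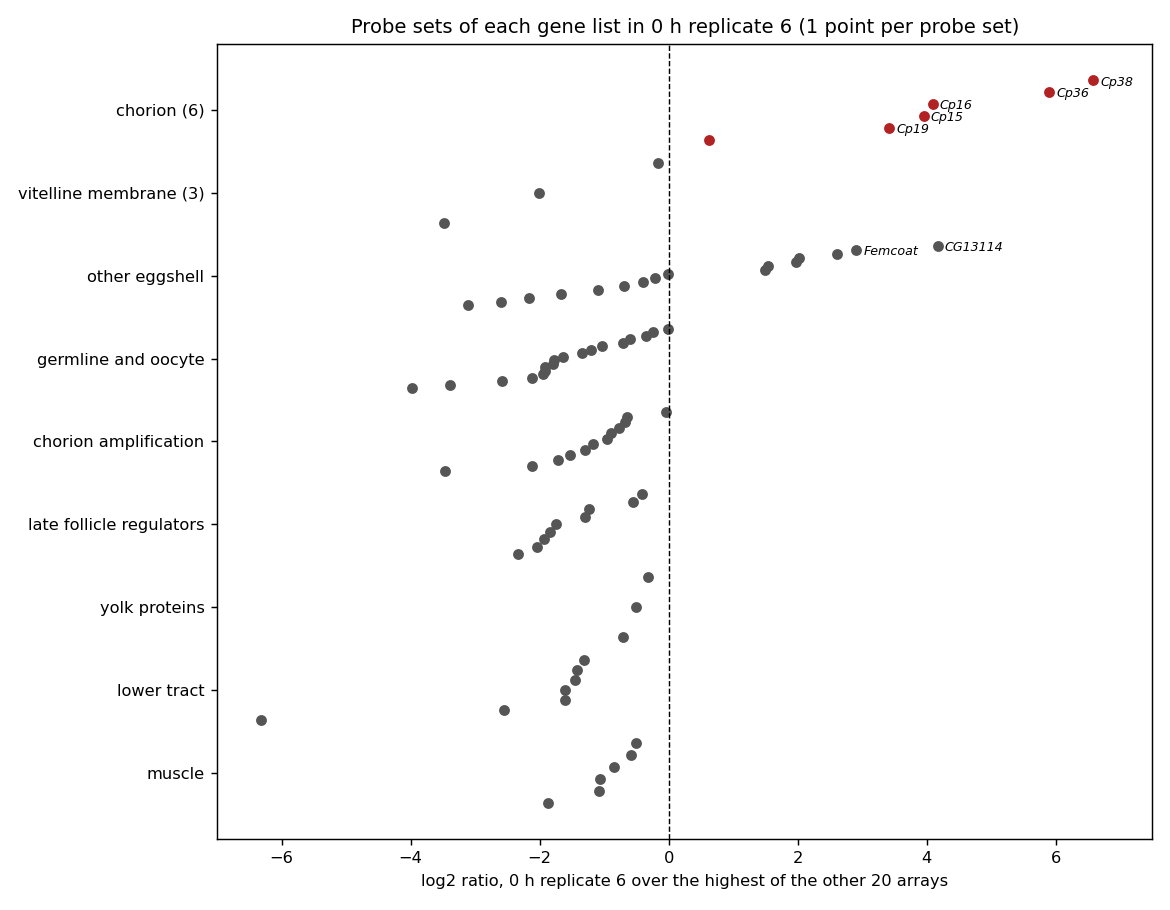
Log2 ratio of the intensity in 0 h replicate 6 to the highest intensity of the other 20 arrays (x axis), 1 point per probe set, by gene list (y axis). The dashed line marks a ratio of 1. The 6 chorion genes lie to the right of it, up to 95.3-fold for Cp38, with 7 of the other eggshell genes, and the remaining lists lie at or left of it.

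Markers of other cell types were read in the same array. None of 14 measured germline and oocyte genes, 12 genes of DNA replication and chorion amplification, 6 regulators of late follicle cells, 3 yolk protein genes, 6 lower tract genes and 5 muscle genes had its highest value there. Set against only the other 5 arrays at 0 h, however, 9 of the 14 germline genes were higher in replicate 6 than in each of the 5, as were 5 of the 12 amplification genes and 6 of the 9 eggshell members, where 16.6% of all probe sets were. The median ratio over the germline genes was 4.03. The oocyte RNA-localisation gene exu had 443.4 in replicate 6, against 21.2, 8.5, 13.6, 13.8 and 14.1 in the other 5 arrays, and osk, the determinant of the posterior pole plasm, had 104.8, against 3.3, 2.9, 11.6, 3.7 and 3.6. These 2 genes had the highest ratios of the list, over low signal in the other arrays at 0 h. Among the germline genes not above all 5, otu had 30.9, inside 7.6 to 46.6. Dimmer probe sets of swa (6.8, against 7.1 to 26.2) and orb (2.2, against 0.9 to 34.7) were not above them either, while those of ovo and gnu were. Within the 0 h group, replicate 6 was therefore high for 9 of the 14 germline genes too, and the part of germline genes in the result was not tested. Whether that pool held ovarian tissue was not tested either. Yp1, a yolk protein made by fat body and follicle cells, had 30518.4 there, inside the 19218.5 to 37741.2 of the other arrays at 0 h. By the brightest probe set of each gene, the 6 genes listed for the labelled tissue were all below the geometric mean of the other 5 arrays at 0 h. They stood at 0.376 to 0.945 times it, with a median of 0.732. A further, dimmer probe set of the listed gene SPR was above it, at 1.80 times. Send1, a protease of the secretory cells of the sperm-storage organs, had 8721.8, inside the 7965.5 to 12277.4 of those arrays. Send2, a related protease, had 172.3, below all of them (212.5 to 1007.5), and the transcription factor gene lz had 17.1, also below all of them (17.8 to 39.7). The part of lower tract signal in the chorion result was not tested.

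Germline and chorion genes were high together in some arrays and not in others. The mean log2 level of the germline probe sets, relative to their medians over the other 20 arrays, was 1.39 in replicate 6 at 0 h and between 0.90 and 2.27 in the 3 arrays at 6 h. The same quantity for the 6 chorion genes was 5.56 in replicate 6 and between -0.73 and -0.13 at 6 h. For the vitelline membrane genes it was 0.097 in replicate 6, between -0.41 and 0.78 over the whole 0 h group, and between -0.076 and 0.86 at 6 h. In single genes, exu reached 404.0, 563.2 and 519.3 at 6 h, where Cp36 had 110.6, 223.4 and 110.4. In 24 h replicate 3 both lists were above 0, at 0.93 for chorion genes, the highest outside replicate 6 at 0 h, and at 1.10 for germline genes.

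**Figure D3:**
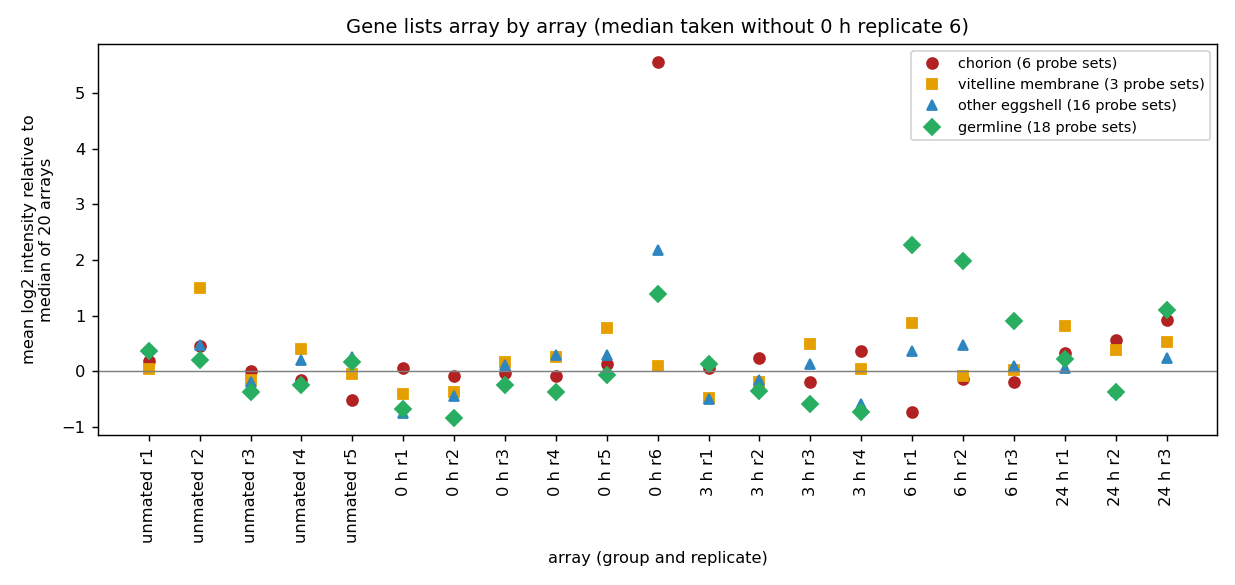
Mean log2 intensity of 4 gene lists in each array (y axis), each probe set relative to its median over the 20 arrays other than 0 h replicate 6; arrays run along the x axis by group and replicate (r). Circles are chorion genes, squares vitelline membrane genes, triangles other eggshell genes and diamonds germline genes. Chorion genes stand at 5.56 in 0 h replicate 6, while germline genes reach 0.90 to 2.27 at 6 h with chorion genes below 0.

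No chorion or vitelline membrane gene passed the test in any comparison of groups. The test was limma on log2 intensity over all 21 arrays, 2-sided, with Benjamini-Hochberg adjustment over all probe sets and a threshold of 0.05. The moderated F test over the 5 groups called 0 of the 9 genes, where 0.344% of all probe sets were called, and the smallest adjusted p among the 9 was 0.501 for Vm34Ca.

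At 0 h minus unmated, 0 of the 9 genes were called, where 0% of all probe sets were called. At an unadjusted p under 0.05 the counts were 1 of the 9 genes and 1037 of 13966 probe sets. The log2 changes of 8 of 9 genes were above 0, with a median of 0.71, while the median of all probe sets was -0.10 and 41.8% were above 0. The change was 1.50 (SE 0.83, adjusted p = 0.709) for Cp15, 1.21 (SE 0.84, adjusted p = 0.788) for Cp36 and 1.14 (SE 1.08, adjusted p = 0.845) for Cp38. These standard errors carried the spread of 1 array. Without replicate 6 the median of the 9 changes was -0.056. The chorion changes were then 0.52 for Cp15, 0.15 for Cp36, -0.056 for Cp18, -0.080 for Cp16, -0.18 for Cp38 and -0.33 for Cp19. Their values with all arrays were 0.23 for Cp18, 0.79 for Cp16 and 0.71 for Cp19, so 4 of the 6 chorion genes changed sign on leaving out this array.

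Vm32E differed from the others at 0 h. It had 22.6, 19.0, 42.1, 30.1, 26.6 and 26.6 at 0 h, against 37.7, 295.8, 23.3, 145.8 and 80.0 in unmated females, a log2 change of -1.55 (SE 0.55, unadjusted p = 0.0112, adjusted p = 0.586, limma). The groups overlapped, 0 h values were close to each other and unmated values were spread widely. The highest unmated value was 295.8 in replicate 2. That array also had the highest signal of all 21 arrays for some genes of other lists. Among these were Mlc2, a muscle myosin light chain (24319.7, against at most 17420.7 elsewhere), Send1 (23968.9) and Yp1 (43154.9), but not Yp2. Whether this bears on its Vm32E value was not tested. Without that array the change of Vm32E was -1.07. Leaving out replicate 6 at 0 h instead gave -1.54 for Vm32E, 0.42 for Vm26Aa and 0.35 for Vm34Ca, where all arrays gave 0.35 for Vm26Aa and 0.43 for Vm34Ca. No gene of the 9 had groups that did not overlap at 0 h, where 1.15% of all probe sets had such groups.

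At 3 h minus unmated, 0 of the 9 genes were called, where 0.115% of all probe sets were called, and 0 of 9 had an unadjusted p under 0.05 (1067 of all probe sets). Changes ran from -0.72 for Vm32E to 1.06 for Cp15, with 4 of 9 above 0 and a median of -0.037, against -0.14 for all probe sets. Cp15 had 46.5, 31.1, 32.8 and 19.3 at 3 h, against 22.5, 9.9, 26.4, 11.8 and 10.4 in unmated females, with overlap in its lowest 3 h array. Within block 3, which held 1 array at 3 h and 2 unmated arrays, the changes of 5 of 9 genes were above 0, with a median of 0.093. Vm26Aa lay between 22.0 and 31.0 at 3 h, within its unmated range of 18.9 to 95.4. None of the 9 genes had groups that did not overlap, where 2.48% of all probe sets had such groups.

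At 6 h minus unmated, 0 of the 9 genes were called, where 1.84% of all probe sets were called, 94 higher and 163 lower, and 0 of 9 had an unadjusted p under 0.05 (2478 of all probe sets). The 9 changes had a median of -0.32, against -0.21 for all probe sets, and 3 of them were above 0. They ran from -0.90 for Vm32E to 0.70 for Cp15. Cp38 had 14.8, 56.1 and 25.7 at 6 h, against 28.7 to 94.0 in unmated females, and Cp16 had 13.6, 15.9 and 24.3, against 19.9 to 67.7. Vm34Ca had 282.3, 265.9 and 313.6, all above the unmated range of 177.6 to 247.4, a log2 change of 0.39 (SE 0.28, adjusted p = 0.491). It was the only gene of the 9 whose groups did not overlap, where 11% of all probe sets had such groups.

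The count of germline calls differed from that of eggshell calls at 6 h, in a list that was chosen with earlier results known. Of 14 germline genes, 3 were called higher at 6 h minus unmated, where 1.84% of all probe sets were called in either direction. They were swa (4.40, SE 0.93), pgc (3.58, SE 0.81) and tor (2.07, SE 0.51). A further probe set of swa was at -0.67 and was not called. Of the 18 germline probe sets, 0 were called lower and the median was 1.93. Of the 14 other eggshell genes measured, 0 were called, with a median of -0.10 over their 16 probe sets, 7 of them above 0. The highest changes were 2.96 for Pxt (SE 0.94, adjusted p = 0.104, limma) and 2.23 for fs(1)N (SE 0.70, adjusted p = 0.102). For both genes all 6 h values were above all unmated values. Of the 12 amplification genes, 1 was called higher, the transcription factor E2f2 (1.67, SE 0.43, adjusted p = 0.0485). None of the 6 follicle regulators and 3 yolk protein genes was called in any comparison with unmated females. Whether the lists differed from each other was not tested.

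At 24 h minus unmated, 0 of the 9 genes were called, where 0% of all probe sets were called, and 1 of 9 had an unadjusted p under 0.05 (1097 of all probe sets). The changes of 8 of 9 genes were above 0, with a median of 0.75, against -0.10 for all probe sets, of which 42.7% were above 0. Vm34Ca had 366.0, 311.7 and 434.8 at 24 h, against 243.3, 230.8, 247.4, 203.4 and 177.6 in unmated females. All 24 h values were above all unmated values, where 4.85% of all probe sets had groups that did not overlap, in either direction. The log2 change of Vm34Ca was 0.75 (SE 0.28, unadjusted p = 0.0146, adjusted p = 0.553, limma). Vm34Ca also had a small spread: its residual SD of 0.29 was at the 3.27 percentile of all probe sets. Vm26Aa had 111.2, 84.8 and 44.8 at 24 h, against 34.7, 95.4, 36.9, 22.5 and 18.9 in unmated females (log2 change 1.10, SE 0.56, adjusted p = 0.653), with overlap in 1 unmated array. Cp15 had 14.6, 53.1 and 80.2 at 24 h, against 9.9 to 26.4 in unmated females (1.42, SE 1.01, adjusted p = 0.770), and its lowest 24 h array lay inside the unmated range. Vm32E was the exception, at -1.14 (SE 0.67, adjusted p = 0.705). Only block 3 held arrays of both groups, 1 at 24 h and 2 unmated; within it the changes of 6 of 9 genes were above 0. They were 0.95 for Vm34Ca, 2.43 for Vm26Aa, 2.99 for Cp19, 0.88 for Cp16, 0.40 for Cp15 and 0.081 for Cp38, and -0.17 for Cp18, -0.18 for Cp36 and -1.43 for Vm32E, with a median over the 9 genes of 0.40 and over all probe sets of -0.051.

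**Figure D4:**
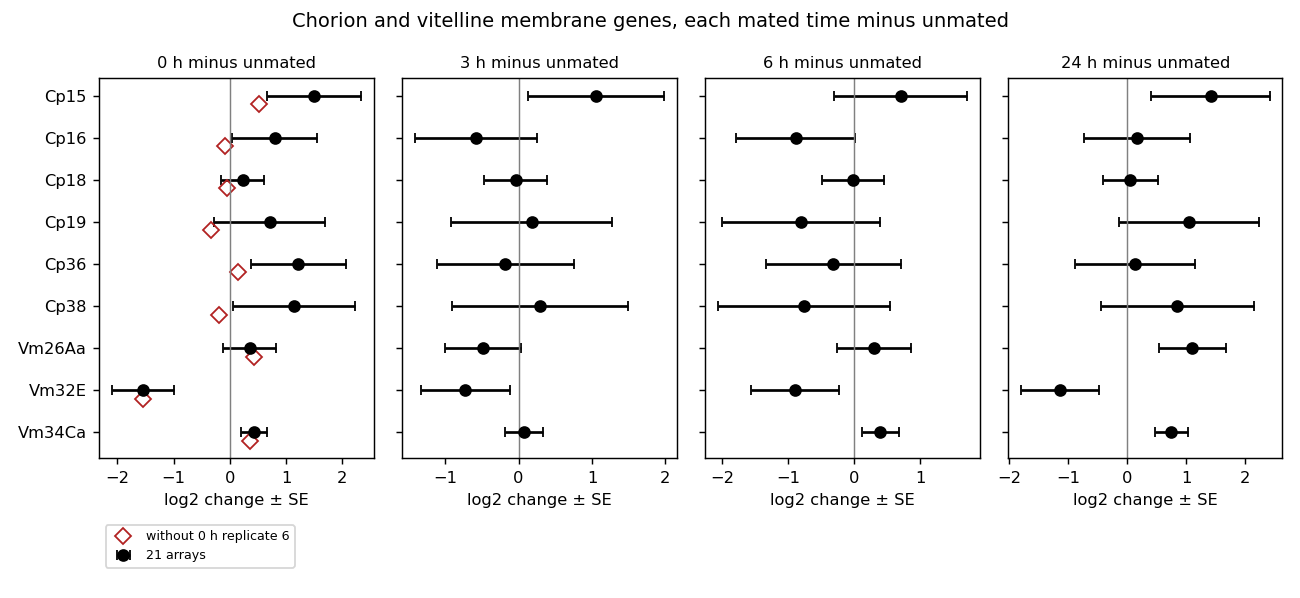
Log2 change (x axis, ± SE from the limma fit) of each gene (y axis) at 0 h, 3 h, 6 h and 24 h minus unmated. Filled points use all 21 arrays, and open diamonds, in the 0 h panel, leave out 0 h replicate 6. Without that array the chorion changes at 0 h lie between -0.33 for Cp19 and 0.52 for Cp15, and the change of Vm34Ca at 24 h is 0.75.

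Between neighbouring times, no gene of the 9 was called either. At 3 h minus 0 h, 0 of 9 were called, where 0.0644% of all probe sets were called (0 of 9 and 964 probe sets at an unadjusted p under 0.05). Here 8 changes were below 0, with a median of -0.53, against -0.066 for all probe sets. They ran from -1.39 for Cp36 to 0.82 for Vm32E, and without replicate 6 at 0 h the change of Cp36 was -0.33 and the median 0.019. At 6 h minus 3 h, 0 of 9 were called, where 0.451% of all probe sets were called (0 of 9 and 1636 probe sets at an unadjusted p under 0.05). The changes ran from -1.06 for Cp38 to 0.77 for Vm26Aa, with a median of -0.17. Block 5 held 1 array of each time, and within it the signs of 5 of the 9 genes turned. The change there was 1.32 for Cp38, 0.81 for Cp36, 0.14 for Cp19, -0.42 for Cp18 and -0.22 for Vm34Ca. It was 0.11 for Vm26Aa.

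At 24 h minus 6 h, 0 of 9 were called, where 0.0358% of all probe sets were called (0 of 9 and 943 probe sets at an unadjusted p under 0.05). The changes of 8 of 9 genes were above 0, with a median of 0.72, against 0.052 for all probe sets, of which 53.5% were above 0. Cp38 had 62.7, 108.4 and 90.8 at 24 h, against 14.8, 56.1 and 25.7 at 6 h. Cp19 had 167.1, 84.3 and 54.3 at 24 h, against 22.6, 24.1 and 29.6 at 6 h. Cp16 had 43.1, 24.8 and 44.1 at 24 h, against 13.6, 15.9 and 24.3 at 6 h. For these 3 of 9 genes the groups did not overlap, where 9.27% of all probe sets had such groups. The change was 1.62 for Cp38 (SE 1.46, adjusted p = 0.890) and 1.86 for Cp19 (SE 1.33, adjusted p = 0.850), and these standard errors also carried replicate 6 at 0 h through the shared spread. Leaving out single arrays of these 2 groups gave medians of the 9 changes between 0.29, without 24 h replicate 3, and 0.81. Blocks 4 and 6 each held 1 array of each time. Within block 4 the changes of 7 of 9 genes were above 0, with a median of 0.78, and within block 6 those of 9 of 9, with a median of 0.86, against 0.051 and 0.17 for all probe sets.

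The spread of the chorion genes between arrays of a group was smaller without the same array. That array was set apart for its high signal of these genes, so the direction was fixed in advance and only the size is described. The residual SD on the log2 scale was 1.95 for Cp38, at the 99.8 percentile of all probe sets, and 0.74 without replicate 6 at 0 h, at the 45.5 percentile. For Cp36 it was 1.52 with the array and 0.44 without it, at the 97.6 and 15.6 percentiles. For Cp19 it was 1.78 and 1.11, at the 99.5 and 81.2 percentiles. For Cp15 it was 1.50 and 0.69, at the 97.3 and 40.7 percentiles, and for Cp16 1.34 and 0.62, at the 93.6 and 34.2 percentiles. For Cp18 the difference was slight, with 0.64 and 0.53, at the 36.4 and 25.3 percentiles. In the other 20 arrays the signal of several genes was low: Cp16 was below the array's own median intensity in 18 of 20 arrays, Cp15 in 17, Vm26Aa and Vm32E in 14 each, Cp19 in 12 and Cp38 in 9, while Cp18, Cp36 and Vm34Ca were never below it. With no detection call, the size of differences between groups at such low signal is uncertain.

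The genes whose pattern was most like the mean of the 9 were ranked by Pearson's r over the 21 arrays, as a description with no test. The 5900 candidate genes were those whose mean log2 intensity was above the median of all probe sets, so dimmer genes were not ranked. The 8 highest were yellow-g (r = 0.81), CG15570 (0.78), CG11381 (0.76), CG13084 (0.69), alpha-Est3 (0.68), blow (0.61), CG5326 (0.61) and CG8952 (0.60). All arrays share their scaling, and 1 array carried much of the likeness: over the 20 arrays without replicate 6 at 0 h, r was 0.18 for yellow-g, -0.069 for CG15570, 0.23 for CG11381 and 0.11 for CG13084. It was 0.45 for alpha-Est3, an esterase, 0.44 for blow, a myoblast fusion gene, 0.41 for CG5326 and 0.37 for CG8952. Outside the lists, CG15570 had 766.2 in replicate 6, against at most 73.5 in the other 20 arrays, and CG11381 had 766.5, against at most 172.3.

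Replicate 6 at 0 h was 1 of 2 arrays with the most probe sets standing apart from all other arrays. Counting probe sets with an intensity of at least 100 and at least 4 times the highest of the other 20 arrays, 15 were found in this array, and 5 of them were Cp15, Cp16, Cp19, Cp36 and Cp38. Another 15 were found in 24 h replicate 2, 7 in 0 h replicate 2 and 4 in 6 h replicate 1, with 0 of the 9 genes among them. The remaining 17 arrays had 2 or fewer each.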

How the data were processed

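RNA of pooled lower reproductive tracts was measured on 21 single-colour oligonucleotide arrays in 5 groups given by the labels. The deposited values are linear intensity per probe set. Per the submitters' processing notes the tool was RMA, with no version. RMA output would be on a log scale, whereas the deposited intensity is linear and its 2% trimmed mean is 150.03 to 150.04 in every array, so how probes were summarised is not settled.

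Intensities were set on the log2 scale without a pseudocount or rescaling. Of 14010 probe sets, 44 controls were left out and 13966 tested. The platform annotation gave 12443 of them 1 symbol, 327 several and 1196 none; symbols of 12394 were brought up to date by gene identifier. The RefSeq table of Release 6 plus ISO1 MT served only for names, chromosome arms and gene order. No pair of arrays of a group shared more than 0.508% of its values, and each array counted as 1 replicate.

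A linear model with 1 mean per group was fitted to all arrays (limma 3.58.1, R 4.3.3). Variances were moderated and tests were 2-sided, with p-values adjusted by Benjamini and Hochberg's method across probe sets for each comparison and a threshold of 0.05. All p-values come from this fit. It was also run on simulated data with independent normal values, no blocks and no single outlying array. That run therefore does not cover an array such as 0 h replicate 6. A list's genes are given by counts and medians with no set test. Where a gene had several probe sets, the brightest was used in counts of genes within 1 array, and all were used in mean list levels and in calls. Replicate numbers follow the order of deposit and pair no arrays.

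The genes described, the lists of other genes and the comparisons were chosen with earlier results of these data known. Named were all members, of other lists the genes called or the 3 brightest, and the 8 genes of most similar pattern; further genes of the lists were named after their values were seen. Array-number blocks were inferred from gaps in the array numbers. Alternatives changed the scaling (quantile normalization, median centring, log2 of intensity plus 16) and the probe sets kept (the brighter 6983). Others changed the arrays (only the groups compared, without block 6, without each array in turn), and the model (blocks as fixed or random, differences within a block, a robust variance trend, weights per array, and the ratio of 3' to 5' control signal as a term).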

Additional observations from a re-analysis of the deposited data

Results flagged for a closer look

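In each group of 4 to 6 arrays, every gene was checked for an array whose gap to its nearest neighbour was large relative to the range of the group (Dixon's criterion on log2 intensity), which chance meets in about 5% of sets. Of 27 sets of a gene and a group, 5 met it, and all 5 were 0 h replicate 6. That array had 16070.3 for Cp36, 10332.1 for Cp38, 2644.8 for Cp19, 1243.5 for Cp15 and 1155.8 for Cp16. The 5 genes share this array, so they are 1 observation and not 5. Cp18, with 606.5 there, and the 3 vitelline membrane genes did not meet the criterion in any group.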

How the results depend on the processing

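No chorion or vitelline membrane gene was called in any of the 7 comparisons under any alternative run. With the dimmer probe sets left out, Cp15, Cp16 and Vm26Aa were not tested, and the median in that setting is over the remaining members. The median of the 9 changes turned sign at 0 h minus unmated (between -0.056 and 0.97), at 3 h minus 0 h (between -1.14 and 0.019) and at 3 h minus unmated (between -0.20 and 0.18), the first 2 on leaving out 0 h replicate 6; it kept its sign in the other 4 comparisons. Of the changes given singly, signs turned for Cp18 at 0 h minus unmated with blocks as a fixed effect (-0.038), for Cp15 at 6 h minus unmated in the same fit (-0.39), and, at 0 h minus unmated, on leaving out 0 h replicate 6. Over all arrays left out in turn, the 0 h change lay between -0.080 and 1.10 for Cp16, -0.056 and 0.37 for Cp18, -0.33 and 1.33 for Cp19, and -0.18 and 1.51 for Cp38, each lowest without that array. Vm32E at 24 h minus 6 h lay between -0.45 and 0.12, above 0 without 6 h replicate 1 and without 24 h replicate 2, and was 0.50 within block 6. Cp38 at 6 h minus 3 h was 1.32 within block 5. Over all 9 genes, differences within a block turned the sign of 3 at 3 h minus unmated (block 3), 2 at 24 h minus unmated (block 3), 0 at 3 h minus 0 h (block 5), 5 at 6 h minus 3 h (block 5), and 1 in each of blocks 4 and 6 at 24 h minus 6 h. The reason for the turns with blocks was not tested.

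The number of all probe sets called moved more. At 0 h minus unmated (0 called) it was 2 with blocks as a fixed effect and 0 to 1 on leaving out arrays in turn. At 3 h minus unmated (16) it was 72 with array weights and 11 to 18 on leaving out arrays. At 6 h minus unmated (257) it was 507 with log2 of intensity plus 16, 427 without the dimmer probe sets, 427 with a variance trend, 392 with the 3' to 5' covariate, 130 without block 6, 65 and 5 with blocks as a random and a fixed effect, 60 with only the groups compared, and 95 to 279 on leaving out arrays. At 24 h minus unmated (0) it was 10 with blocks as a fixed effect, 7 with array weights, 1 with log2 plus 16 and 0 to 11 on leaving out arrays. At 3 h minus 0 h (9) it was 138 with array weights, 22 with log2 plus 16, 18 with a variance trend, 17 without the dimmer probe sets, 3 with blocks as a fixed effect and 5 to 11 on leaving out arrays. At 6 h minus 3 h (63) it was 142 with log2 plus 16, 109 with array weights, 19 and 3 with blocks as a random and a fixed effect, 6 with only the groups compared and 10 to 49 on leaving out arrays. At 24 h minus 6 h (5) it was 13 with array weights, 10 with blocks as a random effect, 8 with log2 plus 16, 3 without block 6, 0 with only the groups compared and 3 to 13 on leaving out arrays. No block held unmated arrays together with arrays at 0 h or 6 h, so no within-block value exists for those comparisons. No paired analysis was possible because the replicate numbers follow the order of deposit and pair no arrays.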
